A study of Rattus norvegicus with 24 samples.

Results

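Signalling genes of striatal spiny neurons were followed across the nucleus accumbens (NAc) and ventral tegmental area (VTA) of rats given fentanyl or saline. The 5 genes are Drd1 and Tac1, which mark spiny neurons of the direct pathway, Drd2 and Adora2a, which mark those of the indirect pathway, and Ppp1r1b, which both kinds of spiny neuron express. They were taken by Ensembl gene ID from the 32552 genes of the count tables. Each ID lay on the chromosome expected for its symbol, and all 5 were kept. The files give IDs without symbols, so the symbols rest on the list of IDs and on that chromosome check.

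RNA was sequenced after ribosomal RNA depletion from bilateral tissue punches, 2.16 mm across in the NAc and 1.19 mm across in the VTA. All rats were Sprague Dawley, of both sexes, and had received either fentanyl, an opioid receptor agonist, or saline; dose, age and days since the last fentanyl are not given in the labels used here. By its title, the series concerns opioid withdrawal, with a test of whether rats choose the drug or food, and the rats were killed at the hour of what would have been their last choice session. For each sex, the NAc was sampled in 4 fentanyl and 3 saline rats and the VTA in 3 and 2. The 24 libraries came from 14 rats, of which 10 were sampled in both regions. A replicate number below is the number in the rat's code.

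Spiny projection neurons are most of the neurons of the striatum, which includes the NAc, and are inhibitory. Those of the direct pathway carry the dopamine D1 receptor, which raises cyclic AMP, and release substance P. Those of the indirect pathway carry the dopamine D2 receptor, which lowers cyclic AMP, together with the Gs-coupled adenosine receptor encoded by Adora2a, which raises it. In both kinds the phosphoprotein DARPP-32 relays cyclic AMP signals by inhibiting protein phosphatase 1. The VTA holds dopamine neurons that project to the NAc, and these carry the D2 receptor themselves as an autoreceptor.

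Positions are those of the deposited tables, and their rat genome build is not given in the sources used here. Drd1 (ENSRNOG00000023688), the D1 receptor gene, lies on chromosome 17 at 11101306 to 11103541, plus strand, as 1 exon of 2236 bases. Tac1 (ENSRNOG00000007374), which encodes the precursor of substance P, lies on chromosome 4 at 33638709 to 33646819, plus strand. Drd2 (ENSRNOG00000008428), the D2 receptor gene, lies on chromosome 8 at 53678777 to 53743642, plus strand. Adora2a (ENSRNOG00000001302), the adenosine receptor gene, lies on chromosome 20 at 14265252 to 14282873, minus strand. Ppp1r1b (ENSRNOG00000028404), which encodes DARPP-32, lies on chromosome 10 at 86303727 to 86312762, plus strand. Of the other listed features, 0 overlapped the span of any of the 5 genes.

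RefSeq promoter windows on build GRCr8 were matched by symbol for 3 of the 5 genes, Drd1, Tac1 and Drd2. Of the 250 bases before the tabled start, 250 lie inside the RefSeq gene span for Drd1, 239 for Tac1 and 0 for Drd2, so the windows of Drd1 and Tac1 precede an internal start. The 250 bases before the annotated start are shown for Drd2, the 1 gene of the 5 with a substantial level in both regions. They lie at chr8:58605153-58605402, plus strand. Capitals mark GC boxes (GGGCGG, or CCGCCC on the other strand).
Drd2: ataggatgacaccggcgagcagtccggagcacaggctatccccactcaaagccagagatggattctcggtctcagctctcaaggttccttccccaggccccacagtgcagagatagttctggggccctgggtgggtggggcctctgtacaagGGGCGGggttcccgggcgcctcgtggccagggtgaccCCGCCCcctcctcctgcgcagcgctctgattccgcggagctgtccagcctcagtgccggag

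The window of Drd2 was 66% G and C, against a median of 51.2% over 33469 rat windows of the same length. Its GC boxes began 98 and 61 bases before the start, and 30.5% of all windows held at least 1 GC box on either strand. For Tac1, on the direct pathway side, the window held a cyclic AMP response element half-site (CGTCA) beginning 206 bases before the start and an E-box (CACGTG) beginning 72 bases before it. Stretches of 30 bases around each are given, both on the plus strand of GRCr8, with the motif in capitals; the half-site stretch lies at chr4:36645365-36645394 and the E-box stretch at chr4:36645499-36645528.
Tac1 half-site: tccctaaaattgCGTCAtttcgaacccaat
Tac1 E-box: tggggagagtgtCACGTGgctctccaggct

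Among all windows 18.2% held the half-site and 5.59% the E-box, counting both strands. The motifs, which do not overlap each other, were chosen after the sequences were seen, and a match is a string of letters and not a tested binding site. Of the motifs searched, which also took in a TATA box (TATAAA, in 12.9% of windows), the window of Drd1 held 0, which says only that these letters are not in that stretch inside the gene.

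NAc libraries held 3.46 M to 5.01 M counts and VTA libraries 4.49 M to 6.3 M. The mitochondrial share of counts was 22.06% to 36.74% in the NAc and 17.59% to 26.88% in the VTA. In NAc females the 4 fentanyl libraries (29.17% to 36.74%) all lay above the 3 saline libraries (22.06% to 26.13%). Female fentanyl replicate 2 stood apart: it had the lowest level of all 5 genes in the NAc, and in the VTA the lowest level of Drd2. Where they were computed, values without it are given beside the NAc results it touches. Levels below are CPM, a gene's counts relative to the library total, after scaling between libraries by edgeR's TMM, which sets the bulk of genes equal. A gene is called changed at a Benjamini-Hochberg adjusted p under 0.05 over all genes tested, in edgeR's quasi-likelihood test.

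In the NAc all 5 genes were well measured. Per kilobase of the deposited gene length, Ppp1r1b had the highest level in each of the 14 NAc libraries, with a mean of 153 ± 33.4 CPM per kilobase (SD, n = 14). Adora2a (67.7 ± 14.6) and Drd1 (66.1 ± 19.1) came next and did not differ beyond their spread. Drd2 (36.6 ± 7.10) and Tac1 (34.5 ± 12.6) came last and did not differ beyond theirs either. The order of all 5 took 4 forms. Ppp1r1b, Adora2a, Drd1, Drd2, Tac1 was the most frequent, in 6 libraries, and the others swapped neighbours within the last pair, the middle pair or both, in 3, 2 and 3 libraries. The level order therefore did not split by pathway: each pathway held 1 gene of the middle pair and 1 of the last pair.

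The question put to the NAc was which of these genes differed between fentanyl and saline rats, and whether the pathways differed alike. In females all 5 had a lower mean after fentanyl, and 2 were called: Drd1, the direct pathway receptor, and Ppp1r1b, the DARPP-32 gene. The indirect pathway genes Drd2 and Adora2a had fold changes of the same sign that missed the threshold, and Tac1 had the widest interval of the 5. The background was large: 13.5% of the 13248 genes tested were called, 5.45% lower and 8.05% higher. In bulk tissue, fewer cells of a type and less RNA per cell cannot be told apart.

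For Drd1 the female fentanyl libraries, replicates 1, 2, 7 and 8, held 108, 55.7, 118 and 140.0 CPM, and the saline libraries, replicates 1, 2 and 4, held 168, 237 and 186 CPM. Every fentanyl library lay below every saline library. The means were 105 ± 35.8 (SD, n = 4) and 197 ± 35.4 (SD, n = 3). The log2 fold change was -0.90 ± 0.25 (SE), with a 95% interval from -1.43 to -0.36 (adjusted p = 0.0331). Without female fentanyl replicate 2, Drd1 kept a log2 fold change of -0.68 at an adjusted p of 0.00658. The call ended when any of 4 other libraries was left out: female fentanyl replicate 1 (adjusted p = 0.0704) or female saline replicate 1 (0.0571), 2 (0.119) or 4 (0.0742).

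Tac1, the other direct pathway gene, had the lowest CPM of these genes, without regard to length, and the largest SE. Female fentanyl libraries held 29.6, 14.7, 35.8 and 42.1 CPM, and saline libraries held 33.8, 68.4 and 27.4 CPM. The groups overlapped, since saline replicate 4 lay below 3 of the fentanyl libraries and saline replicate 2 stood above every other. The log2 fold change was -0.49 ± 0.41 (SE, 95% interval -1.40 to 0.42, adjusted p = 0.473), and without saline replicate 2 it was -0.00082. Without fentanyl replicate 2 it was -0.24.

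Drd2, the indirect pathway dopamine receptor, held 90.6, 47.2, 99.1 and 101 CPM in the female fentanyl libraries and 109, 122 and 109 CPM in the saline libraries. The groups did not overlap, although the gap between saline replicate 4 and fentanyl replicate 8 was narrow. The log2 fold change was -0.42 ± 0.19 (SE, 95% interval -0.84 to -0.0067, adjusted p = 0.166), so Drd2 was not called. Without fentanyl replicate 2 the value was -0.22 (adjusted p = 0.225).

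Adora2a, the adenosine receptor of the same neurons, held 149, 83.2, 150.3 and 159 CPM after fentanyl and 170.2, 203 and 176 CPM after saline in females. These groups did not overlap either, and replicate 2 stood well below the other 3 fentanyl libraries. The log2 fold change was -0.43 ± 0.17 (SE, 95% interval -0.78 to -0.084, adjusted p = 0.0914), short of the threshold. Without replicate 2 it was -0.26 (adjusted p = 0.122).

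Ppp1r1b held 223, 142, 263 and 229 CPM in the female fentanyl libraries and 301, 373 and 301 CPM in the saline libraries. Every fentanyl library was below every saline library. The means were 214 ± 51.6 (SD, n = 4) and 325 ± 41.6 (SD, n = 3), with a log2 fold change of -0.60 ± 0.18 (SE, 95% interval -0.98 to -0.21, adjusted p = 0.0425). Without female fentanyl replicate 2 it was -0.44 at an adjusted p of 0.0435. The call was close to the threshold and ended when any of 7 other libraries was left out: female fentanyl replicate 1 (adjusted p = 0.0839) or 8 (0.0544), female saline replicate 1 (0.0816), 2 (0.154) or 4 (0.0768), or male saline replicate 3 (0.0586) or 4 (0.0563).

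Groups that did not overlap, with fentanyl below saline, were thus found for 4 of the 5 genes in NAc females; 12.6% of all genes tested had that pattern. With the mitochondrial features left out, Drd1 (log2 fold change -0.90, adjusted p = 0.0324) and Ppp1r1b (-0.60, adjusted p = 0.0418) kept their calls. Fitting the female groups alone gave 0 calls among the 5 genes, with adjusted p of 0.0706 for Drd1 and 0.0533 for Ppp1r1b. Without a filter on low counts Drd1 also lost its call (adjusted p = 0.0661). In that fit Ppp1r1b stayed called, and Drd2 (adjusted p = 0.00452) and Adora2a (adjusted p = 0.000843) gained a call. Its lowest adjusted p over all genes was 5.4e-26, against 6.2e-06 in the filtered fit. The adjusted p of the 2 fits are therefore not on a like footing. In the filtered fit the median log2 fold change of the 5 genes was -0.49, which is the value of Tac1, against -0.00012 over all 13248 genes. Without female fentanyl replicate 2 the values were closer to 0, from -0.68 for Drd1 to -0.22 for Drd2, with -0.44 for Ppp1r1b, -0.26 for Adora2a and -0.24 for Tac1. The scaling moved the value over all genes: with library totals alone the median of all genes was -0.21. The calls over all genes then went from 1066 higher and 722 lower to 449 higher and 2245 lower. Drd1 (-1.09) and Ppp1r1b (-0.80) remained called, and Drd2 (-0.63, adjusted p = 0.0207) and Adora2a (-0.64, adjusted p = 0.00556) were called too.

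**Figure D1:**
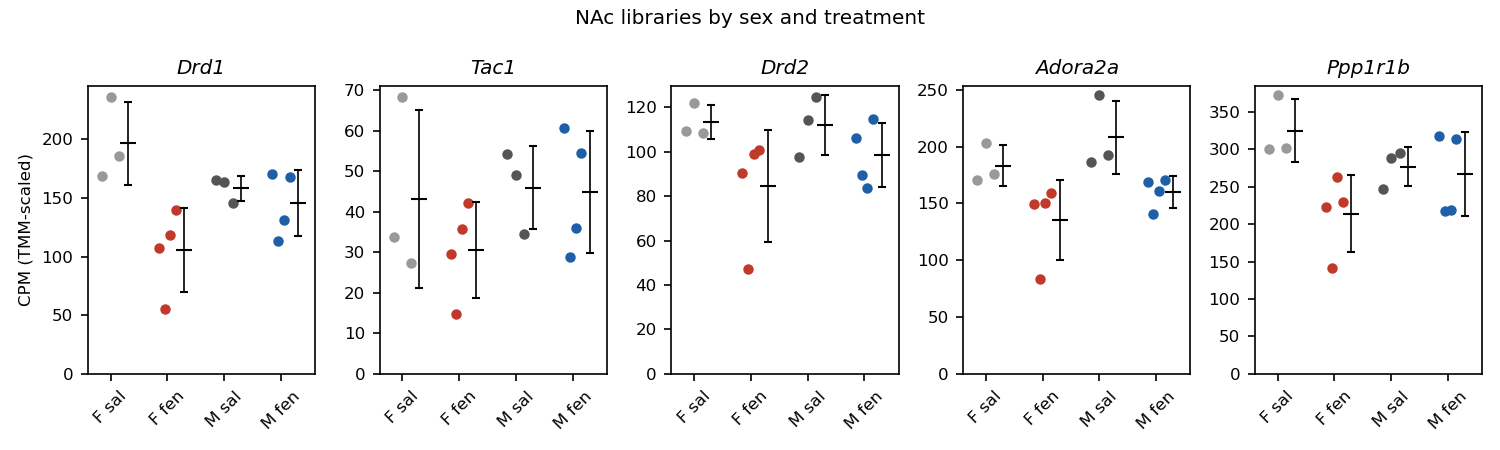
Level of each gene in each of the 14 NAc libraries (y axis, CPM after TMM scaling, from 0), by sex and treatment (F, female; M, male; sal, saline; fen, fentanyl); points are rats and bars show the mean ± SD. Female fentanyl points lie below all female saline points for Drd1, Drd2, Adora2a and Ppp1r1b and overlap them for Tac1.

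In males 0 of the 5 genes were called, and 0% of all genes were. DESeq2 called 6 genes, and 850 of 13248 had an unadjusted p under 0.05 in edgeR, where a share near 0.05 would be reached with no effect. Drd1 held 170.1, 113, 132 and 168 CPM in male fentanyl replicates 1, 2, 3 and 7 and 165, 163 and 146 CPM in saline replicates 1, 3 and 4. The fentanyl libraries lay on either side of the saline ones, with a log2 fold change of -0.11 ± 0.25 (SE, 95% interval -0.65 to 0.43). Ppp1r1b was alike in this: 318, 218, 219.6 and 315 CPM after fentanyl spanned the 248, 289 and 295 CPM after saline, and the log2 fold change was -0.046 (95% interval -0.44 to 0.35). These intervals still take in moderate changes in either direction.

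Adora2a was the gene that stood out in males. Fentanyl libraries held 168, 140.3, 161 and 170.8 CPM, and saline libraries held 186, 245 and 193 CPM. All 4 fentanyl libraries were below all 3 saline libraries, a pattern that 4.26% of genes had in males. The log2 fold change was -0.37 ± 0.17 (SE, 95% interval -0.72 to -0.023), with an unadjusted p of 0.038 and an adjusted p of 0.759. It was not called.

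The other indirect pathway gene, Drd2, held 106, 89.7, 83.7 and 115 CPM after fentanyl and 97.7, 114 and 124 CPM after saline in males. Those groups overlapped, and the log2 fold change was -0.18 (95% interval -0.60 to 0.23). Tac1 held 60.7, 28.7, 36.1 and 54.4 CPM after fentanyl and 54.3, 49.2 and 34.4 CPM after saline. It spread across the whole range in both groups, with a log2 fold change of -0.026 (95% interval -0.93 to 0.88).

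Averaged over the sexes, Adora2a was the gene called, with a log2 fold change of -0.40 ± 0.12 (SE, 95% interval -0.65 to -0.16, adjusted p = 0.0455). In each sex all 4 fentanyl libraries lay below all 3 saline libraries. Of all genes 7.51% were called in this contrast, 2.99% lower. The call ended when any 1 of the 14 libraries was left out except female fentanyl replicates 2, 7 and 8, with adjusted p up to 0.107. Drd1 (-0.51, adjusted p = 0.10), Ppp1r1b (-0.32, adjusted p = 0.142), Drd2 (-0.30, adjusted p = 0.191) and Tac1 (-0.26, adjusted p = 0.639) were not called. Without female fentanyl replicate 2, Adora2a (-0.31, adjusted p = 0.0118) stayed called and Drd1 (-0.40, adjusted p = 0.0236) was called too, while Ppp1r1b (-0.24), Drd2 (-0.20) and Tac1 (-0.13) were not.

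The difference between the sexes was tested as the female effect minus the male effect. It was -0.78 ± 0.35 for Drd1 (SE, 95% interval -1.55 to -0.017, unadjusted p = 0.0458, adjusted p = 0.34). For Ppp1r1b it was -0.55 ± 0.26 (95% interval -1.10 to 0.0051, adjusted p = 0.36). Neither was called, and 0.77% of all genes were, so the calls in females do not by themselves show a sex difference in these genes. For Adora2a the difference was -0.062 (95% interval -0.56 to 0.43), for Drd2 -0.24 (-0.83 to 0.35) and for Tac1 -0.46 (-1.75 to 0.82). Without female fentanyl replicate 2 the differences were -0.57 for Drd1 (adjusted p = 0.182), -0.39 for Ppp1r1b (adjusted p = 0.339), 0.12 for Adora2a, -0.034 for Drd2 and -0.22 for Tac1. That library thus set most of the value for Drd2. The sign for Adora2a turned in 3 of 21 alternative settings, this one among them.

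**Figure D2:**
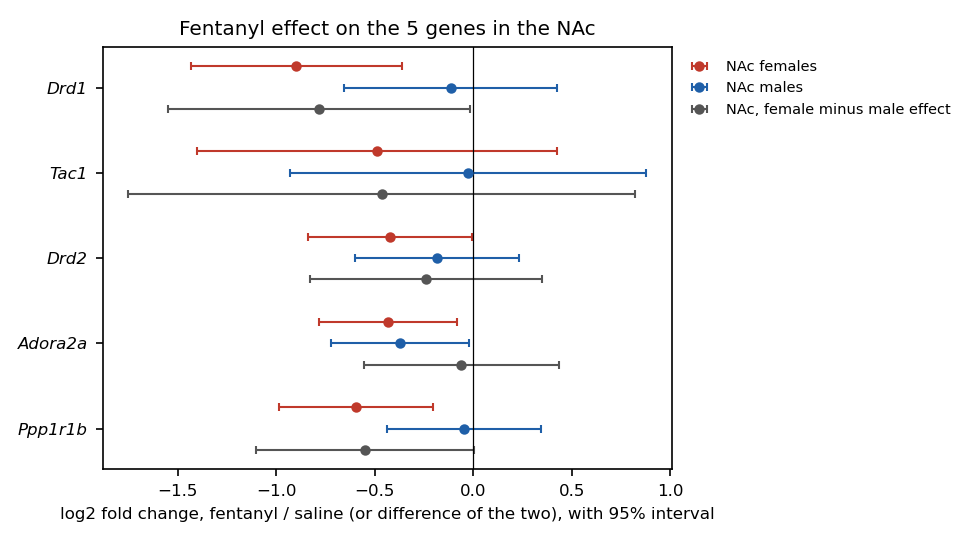
Log2 fold change of fentanyl against saline in the NAc (x axis) for each gene, in females, in males and as female minus male effect. Points are edgeR estimates and bars 95% intervals. The female intervals of Drd1, Drd2, Adora2a and Ppp1r1b lie wholly below 0 and that of Tac1 spans it; Adora2a has estimates of -0.43 in females and -0.37 in males.

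Saline rats of the 2 sexes were also compared, since they are the reference for the effects above. None of the 5 genes was called (0.377% of all genes were). Drd1 had a log2 difference, female minus male, of 0.31 ± 0.26 (SE, adjusted p = 0.717), and Ppp1r1b one of 0.23 ± 0.20 (adjusted p = 0.721). For Drd1 the 3 female saline libraries, at 168, 186 and 237 CPM, all lay above the male saline libraries, at 146, 163 and 165 CPM, a pattern that 10.3% of genes had. The female fentanyl libraries lay below both, from 55.7 to 140.0 CPM. Adora2a (-0.18), Tac1 (-0.095) and Drd2 (0.013) had smaller differences.

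To compare the pathways within a library, the log2 ratio of a direct to an indirect pathway gene was taken per kilobase, which cancels the scaling between libraries. The ratio of the dopamine receptors, Drd1 to Drd2, was 0.54, 0.54, 0.55 and 0.77 in the female fentanyl libraries and 0.92, 1.25 and 1.07 in the female saline libraries. All 4 fentanyl ratios were below all 3 saline ratios, and replicate 2 was not apart from replicates 1 and 7. The means differed by -0.48, from 1.08 ± 0.16 (SD, n = 3) to 0.60 ± 0.11 (SD, n = 4), and by -0.46 without fentanyl replicate 2. Among single genes, 24.8% had levels that did not overlap between the female groups, in either direction. The share among ratios of genes was not counted.

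Drd1 against Adora2a gave the same picture in females, though this ratio shares its Drd1 values with the ratio to Drd2. The ratio was -0.32, -0.43, -0.19 and -0.029 after fentanyl and 0.14, 0.37 and 0.23 after saline, so Drd1 was the lower of the pair in every fentanyl library and the higher in every saline library. The means differed by -0.49, and by -0.43 without fentanyl replicate 2.

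Tac1, the neuropeptide gene of the same direct pathway neurons, did not follow Drd1 in this. Against Drd2 its ratio ran from -0.46 to -0.039 after fentanyl and from -0.77 to 0.38 after saline, with a difference of means of -0.0019. Against Adora2a the difference was -0.0085. The saline libraries alone spread wider in these ratios than the shift seen with Drd1. Without fentanyl replicate 2 the differences were 0.058 and 0.091. Without saline replicate 2, the library with the highest Tac1, they were 0.33 and 0.30, so the values near 0 rest on that library.

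In males all 4 ratios overlapped between treatments. Drd1 to Drd2 was 0.98, 0.63, 0.95 and 0.85 after fentanyl and 1.05, 0.81 and 0.53 after saline, a difference of 0.054. For the other ratios the differences were 0.23 (Drd1 to Adora2a), 0.12 (Tac1 to Drd2) and 0.30 (Tac1 to Adora2a), all above 0. The Drd1 to Drd2 ratios of the female fentanyl libraries lay inside the range of the male libraries, while 2 of the 3 female saline libraries lay above it. These ratios are given as values without a test, and whether the direct and indirect genes changed by different amounts was not tested.

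**Figure D3:**
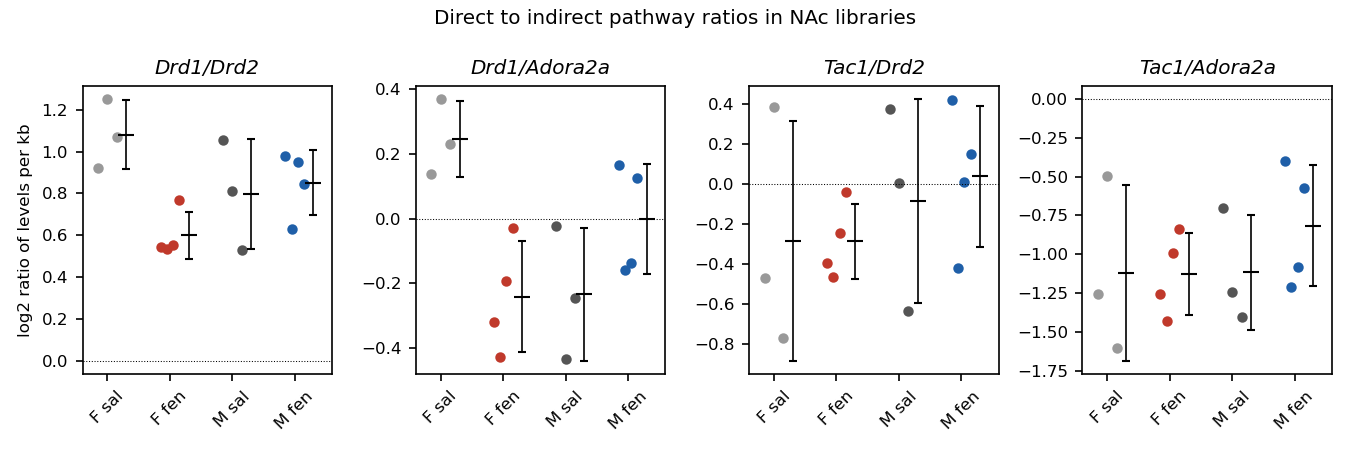
Log2 ratio of direct to indirect pathway genes, per kilobase, in each NAc library (y axis) by sex and treatment (F, female; M, male; sal, saline; fen, fentanyl), 1 panel per pair of genes; points are rats and bars show the mean ± SD. In females the ratios with Drd1 are lower after fentanyl with no overlap, and those with Tac1 overlap.

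Across the 14 NAc libraries the levels of the 5 genes varied together between animals, in good part through female fentanyl replicate 2, which was low in all 5. As a description, Pearson's r of log2 CPM between Drd1 and Ppp1r1b was 0.93 over 14 libraries and 0.85 over the 13 without that library. With the group means removed it was 0.88 and 0.73. Between the dopamine receptors r was 0.90, and 0.89 with group means removed, but 0.72 and 0.61 without that library. Between the indirect pathway genes Drd2 and Adora2a it was 0.90 and 0.89, but 0.69 and 0.51 without it.

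Among the pairs, 2 kept a high r with group means removed when that library was left out: Tac1 with Drd1, the direct pathway genes (0.91 with it and 0.91 without), and Drd2 with Ppp1r1b (0.92 and 0.89). Before group means were removed, r of Tac1 with the other 4 genes was 0.75 to 0.82 over 14 libraries and 0.43 to 0.64 over 13. These points share the punch, the library and its scaling.

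Other genes were closer still. Among the 8694 other genes that averaged 10 CPM or more in the NAc, the gene most like Drd1 was ENSRNOG00000036828 on chromosome 7 (r = 0.98, and 0.95 without female fentanyl replicate 2), and it was also the most like Ppp1r1b (0.97 and 0.93). The most like Tac1 was ENSRNOG00000011857 on chromosome 4 (0.91 and 0.83), for Drd2 it was ENSRNOG00000004918 on chromosome 3 (0.96 and 0.80), and for Adora2a ENSRNOG00000030771 on chromosome 6 (0.97 and 0.94). Without that library the gene named for Adora2a stayed at place 1, those for Drd1, Ppp1r1b and Tac1 were at places 4, 3 and 2, and that for Drd2 was at place 69. The nearest of the 5 to Drd1 was Ppp1r1b, at place 11 with the library and place 55 without it.

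Of the genes with a call and an excess of 4-fold or more in the NAc over the VTA, 517 were tested for fentanyl. In NAc females 30 of them rose and 53 fell (10.3%, against 5.45% of all genes tested). Their median log2 fold change was -0.096, against -0.00012 over all genes. That list holds 4 of the 5 genes, all but Drd2. Without them 30 of 513 rose and 51 fell (9.94%), with a median of -0.093. The list was drawn from these same libraries, female fentanyl replicate 2 among them, and whether it fell as a set was not tested. These counts were not repeated without that library, so how far they rest on it is not known.

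NAc and VTA punches of the same rat were set against each other in 10 rats, with the rat as a block, to see how far each gene separates the striatal from the midbrain punch. All 5 genes were higher in the NAc, but by very different amounts: Drd1 by 94.1-fold, Adora2a by 51.8-fold, Ppp1r1b by 26.6-fold, Tac1 by 9.82-fold and Drd2 by 1.72-fold. All 5 were called, where 62.3% of 14795 genes were called and 30.6% were called higher in the NAc. A call together with an excess of 4-fold or more was found for 3.75% of genes.

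Drd1 was nearly absent from the VTA, with 0 to 17 counts per library and a mean of 1.51 ± 0.92 CPM (SD, n = 10), against 148 ± 42.7 CPM (SD, n = 14) in the NAc. Its log2 difference was 6.56 ± 0.25 (SE, adjusted p = 1.18e-08). In single rats the NAc level of Drd1 was 28.5 to 215 times that of the VTA; male fentanyl replicate 3 had 0 counts in the VTA and was at least 224-fold higher in the NAc, against a floor of 3 counts in that library.

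Adora2a had 12 to 24 counts in every VTA library and a log2 difference of 5.69 ± 0.11 (SE, adjusted p = 1.62e-16). By p-value it was place 3 of the 14795 genes. Per rat the excess was 28.4-fold to 99.6-fold, and in each rat the NAc level was far outside the VTA range of 1.87 to 5.25 CPM.

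Ppp1r1b (log2 difference 4.74 ± 0.17) was 10.2-fold to 52.5-fold higher in the NAc of each rat, and Tac1 (3.30 ± 0.17) 4.17-fold to 38.7-fold. Both had a low but measurable VTA level, of 4.83 to 25.2 CPM for Ppp1r1b and 1.40 to 11.6 CPM for Tac1.

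Drd2 was different: its VTA level was more than a trace, at 60.1 ± 27.6 CPM (SD, n = 10) against 101 ± 19.5 CPM (SD, n = 14) in the NAc. The log2 difference was 0.78 ± 0.17 (SE, adjusted p = 0.00345). It was higher in the NAc in 9 of 10 rats, and in male saline replicate 1 the NAc level was 0.877 times the VTA level. The lowest VTA value, 8.41 CPM from 43 counts, belonged to female fentanyl replicate 2; the other VTA libraries held 211 to 715 counts. Without that rat the log2 difference of Drd2 was 0.69 (adjusted p = 8.65e-06). In saline rats alone the log2 difference of Drd2 was 0.68 (adjusted p = 0.0632) and was not called, where 45.1% of genes were (without female fentanyl replicate 2 in the fit it was 0.69, adjusted p = 0.000665), and in fentanyl rats alone it was 0.89 (adjusted p = 0.00863), where 54% were. Each of the other 4 genes was called in both.

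Being higher in the NAc in every rat with both regions was true of 4 of the 5 genes and of 19.4% of all genes. Per kilobase, Drd2 had the highest VTA level of the 5, 21.9 ± 10.03, then Ppp1r1b (6.41 ± 3.46), Tac1 (3.81 ± 2.59), Adora2a (1.33 ± 0.39) and Drd1 (0.67 ± 0.41). The spreads of Ppp1r1b and Tac1 overlapped. Within a library Ppp1r1b was the higher, except in male saline replicate 3 (3.16 against 3.30) and female saline replicate 2 (5.86 against 9.81). The receptors of the indirect pathway thus parted in the VTA, where Drd2 was the highest of the 5 and Adora2a the next to last. Genes of dopamine neurons, and other marker lists for either punch, could not be matched to IDs and were not analysed here.

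**Figure D4:**
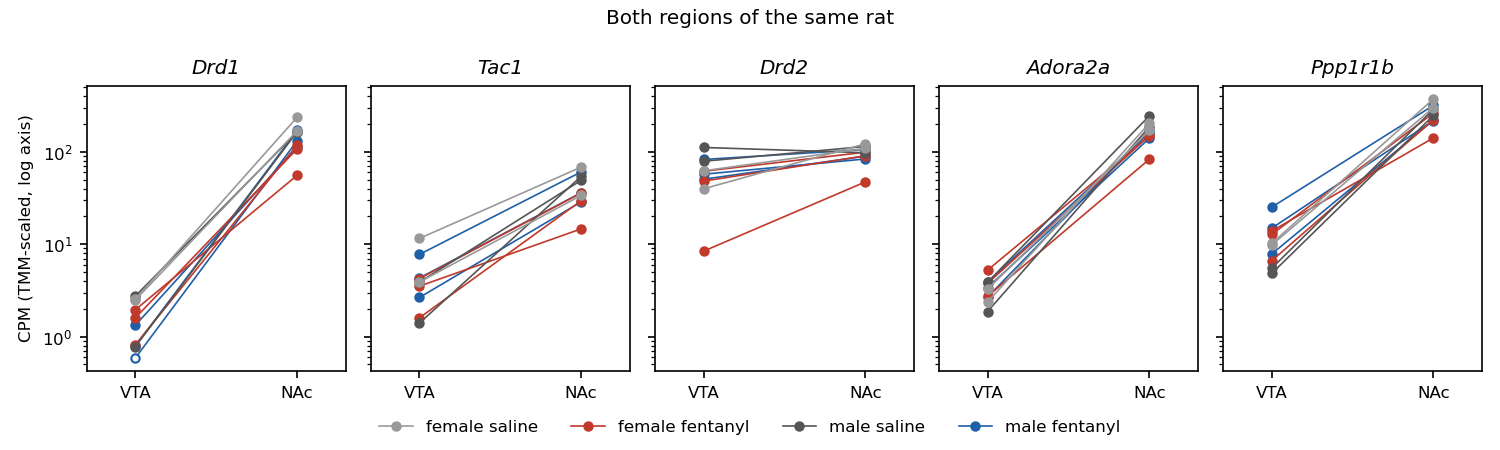
Level of each gene in the VTA and NAc of the same rat (y axis, CPM after TMM scaling, log axis); each line joins the punches of 1 of 10 rats. The lines rise steeply for Drd1, Adora2a and Ppp1r1b and are shallow for Drd2, with 1 line that falls.

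Within the VTA 0 genes of 14400 were called between fentanyl and saline in females, in males, on average or as a difference of effects, so percent called was 0% in each. Unadjusted p under 0.05 was found for 1098 of these genes in females and 648 in males, where a share near 0.05 would be reached with no effect. DESeq2 called 37 and 7. With 3 fentanyl and 2 saline libraries in each sex, intervals were wide: in females the 95% interval of the Drd2 fold change ran from -2.01 to 1.28 on the log2 scale.

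Ppp1r1b in males had the smallest p of the 5 genes in the VTA. Fentanyl libraries held 25.2, 14.9 and 7.84 CPM, from 159, 101 and 40 counts, and saline libraries held 4.83 and 5.50 CPM, from 31 and 34 counts. All 3 fentanyl libraries lay above both saline libraries, as for 11.6% of genes. The log2 fold change was 1.63 ± 0.46 (SE, 95% interval 0.63 to 2.64), with an unadjusted p of 0.00421 and an adjusted p of 0.956. Without a filter on low counts the adjusted p was 0.000267. That fit called 114 genes in males, with adjusted p down to 2.6e-20, where the filtered fit called 0. The 2 adjusted p of Ppp1r1b are therefore not on a like footing. In females it held 6.62, 13.9 and 12.8 CPM after fentanyl and 9.83 and 10.2 CPM after saline, which overlapped (log2 fold change 0.17).

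Tac1 had opposite signs in the sexes in the VTA. Female fentanyl libraries held 1.60, 3.52 and 4.25 CPM and saline libraries 3.90 and 11.6 CPM, with a log2 fold change of -1.26 ± 0.60 (SE, adjusted p = 0.654). Male fentanyl libraries held 7.76, 2.66 and 4.31 CPM and saline libraries 1.40 and 3.88 CPM, with a log2 fold change of 0.89 ± 0.64 (SE, adjusted p = 0.956). The difference of effects was -2.14 (unadjusted p = 0.0318, adjusted p = 1.0), and these levels rest on 7 to 68 counts per library.

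The receptor genes gave nothing past the threshold in the VTA. Drd2 held 48.2, 8.41 and 61.5 CPM after fentanyl and 62.2 and 39.8 CPM after saline in females, and 82.6, 50.5 and 57.2 CPM against 111 and 79.0 CPM in males. The groups overlapped in each sex, and the log2 fold changes were -0.36 and -0.59. Without female fentanyl replicate 2 the female value was 0.11. Adora2a had log2 fold changes of 0.46 in females and 0.20 in males, on 12 to 24 counts. For Drd1, at 5 to 10 counts against 16 and 15 in females, the 3 fentanyl libraries lay below both saline libraries (11.6% of genes did), with a log2 fold change of -0.80 (95% interval -2.52 to 0.93).

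**Figure D5:**
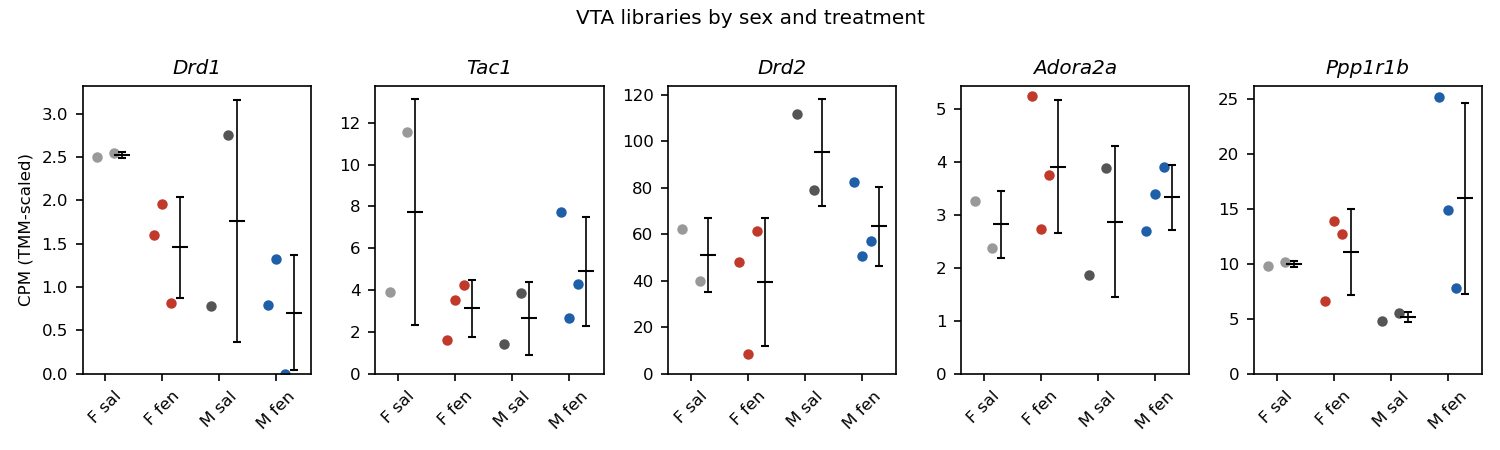
Level of each gene in each of the 10 VTA libraries (y axis, CPM after TMM scaling, from 0, with a scale of its own in each panel), by sex and treatment (F, female; M, male; sal, saline; fen, fentanyl); points are rats and bars show the mean ± SD. Drd1 stays under 3 CPM and Adora2a under 6 CPM, while Ppp1r1b is higher in the 3 male fentanyl libraries than in the 2 male saline libraries.

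Whether the fentanyl effect differed between regions was tested within the same 10 rats, averaged over the sexes, and 0% of genes were called. The NAc effect minus the VTA effect was -1.26 ± 0.33 for Ppp1r1b (SE, 95% interval -1.99 to -0.54, unadjusted p = 0.00315, adjusted p = 0.781). It was -0.85 ± 0.23 for Adora2a (SE, 95% interval -1.33 to -0.37, unadjusted p = 0.00159, adjusted p = 0.781). For these genes the signs differed, with negative log2 fold changes in the NAc (-0.32 and -0.40 averaged over the sexes) and positive ones in the VTA (0.90 and 0.33). Those values come from the separate fit of each region, and the NAc fit took in all 14 rats. Drd1 (0.28), Drd2 (0.21) and Tac1 (-0.50) had intervals that spanned 0. Over all genes 840 of 14795 had an unadjusted p under 0.05, where a share near 0.05 would be reached with no effect.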

How the data were processed

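The deposited files are raw counts per Ensembl gene, 1 table per library, with gene length and position beside them. The submitters' processing notes name STAR 2.5.2b, Trimmomatic 0.36, Subread 1.5.2, featureCounts and DESeq2, without saying which did what. The sources used here do not give build, annotation, strandedness or the handling of multiply aligned reads. About 22 M reads per sample are stated per the labels' protocols, with RIN 8.0 to 9.2.

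The 5 genes, the lists and the tests were chosen with earlier results of these data known. Groups came from the labels (region, sex, treatment). Each region was fitted over its 4 groups in edgeR 4.0.16 (R 4.3.3): TMM, filterByExpr, robust dispersion, quasi-likelihood F test (two-sided), Benjamini-Hochberg adjustment over all genes tested, threshold 0.05. Standard errors were derived from the F statistic. Regions were compared in 10 rats with rat as a block. The rat code pairs libraries across regions. Their residuals had a mean correlation of 0.026 over 10 pairs (-0.104 to 0.21). Over 90 pairs of different rats the mean was -0.0029 (-0.193 to 0.174). Removing group means ties these 2 means together, so the second is not a separate reference. The pairing rests on the code. Libraries of a group differed beyond sampling noise (chi-square per degree of freedom 2.61 to 20.9 over 26 pairs). Rats are the replicates, so the printed 95% intervals include the spread between rats; the floor of 3 counts covers counting error only. Likeness used log2 CPM with a prior count of 2. The naming rule took all 5 genes and the 2 genes most like each; only the nearest is given. Other gene lists need symbols for the IDs and were not analysed here. Alternatives were DESeq2 1.42.0, limma 3.58.1 voom, other scaling, no low-count filter, mitochondrial features left out, only the groups compared, the replicate number as a block, and each library left out; likeness without female fentanyl replicate 2 was added after seeing the data. The tests were checked on simulated data.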

Additional observations from a re-analysis of the deposited data

Results flagged for a closer look

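In the 10 groups of 4 NAc libraries (each gene in the fentanyl rats of each sex), 1 value lay far from the others: Adora2a in female fentanyl replicate 2, at 83.2 CPM, where the other 3 libraries held 149 to 159 CPM. Its gap to the nearest library took 0.871 of the range of the group, above Dixon's 95% critical value of 0.829. Chance alone gives about 1 in 20 groups. The same library was the lowest of its group for the other 4 genes too, with gaps below that critical value.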

How the results depend on the processing

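Over 1184 values of the 5 genes under alternatives, 1106 kept their direction and side of the threshold, 26 lost a call, 20 gained one and 32 of the uncalled changed sign. The cause was not tested. Nearly all the lost calls were fentanyl calls in the NAc. In females the call was lost in 6 of 22 alternatives for Drd1 and 8 of 22 for Ppp1r1b. On the mean of the sexes it was lost in 11 of 21 for Adora2a. In NAc females no gene changed sign; adjusted p was 0.00111 to 0.119 for Drd1 and 2.73e-05 to 0.154 for Ppp1r1b. Genes called there over all genes were 2694 with library totals alone, 1102 with only the 2 groups compared and 755 to 2018 with 1 library left out; of the 5 genes 4, 0 and 0 to 2 were called. In NAc males DESeq2, no low-count filter, only the 2 groups and single left-out libraries gave 6, 46, 2 and 0 to 2 genes. For the mean of the sexes the range with 1 library left out was 315 to 1299 genes and 0 to 2 of the 5 genes, and DESeq2, library totals and no filter called 2, 2 and 3 of the 5. For the sex difference DESeq2 gave 256 genes, no filter 388 (1 of the 5, Ppp1r1b, adjusted p = 0.0428) and left-out libraries 20 to 299. For saline sexes DESeq2, library totals, no filter, 2 groups and left-out libraries gave 120, 33, 210, 218 and 10 to 136.

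In VTA females DESeq2, no filter, 2 groups and left-out libraries gave 37, 418, 5 and 0 to 11 genes; in males 7, 114 (1 of the 5, Ppp1r1b), 2 and 0 to 1; on average DESeq2, no filter and left-out libraries gave 39, 499 (2 of the 5, Drd2 and Ppp1r1b) and 0 to 2; for the sex difference 1, 109 and 0 to 5. Region by fentanyl gave 148 without the filter (1 of the 5, Ppp1r1b, adjusted p = 1.44e-07) and 0 to 1 with a library left out. Drd2 in saline rats was called without the filter (adjusted p = 7.38e-06) and without female fentanyl replicate 2 (0.000665) or 7 (0.0415). In every contrast, adjusted p without the filter are not on a like footing with those of the filtered fits. With library totals alone the levels per kilobase were 1.26 for Drd1 and 6.42 for Ppp1r1b in VTA saline females and 3.32 for Ppp1r1b in VTA saline males. Drd1 in VTA males had too few counts for the fit of only 2 groups.

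Replicate numbers were not shown to pair rats: deviations of same-numbered NAc libraries correlated at -0.052 and -0.013 in females and -0.097 and -0.071 in males, and in the VTA at 0.0077 and -0.079 in females and 0.39 and 0.33 in males. With the number as a replicate block 4 of the 5 genes were called in NAc females (Drd2 adjusted p = 0.0468, Adora2a 0.0263), 341 genes on the mean of the sexes, 236 for the sex difference and 1 for the VTA mean. In the region comparison without the block, Drd2 in fentanyl rats had an adjusted p of 0.0832.

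Uncalled values that changed sign, as log2 ranges with 1 library left out, were in the NAc Tac1 (-0.20 to 0.14) and Ppp1r1b (-0.14 to 0.040) in males, the sex difference of Tac1 (-0.70 to 0.025) and Adora2a (-0.19 to 0.12), and saline sexes for Tac1 (-0.59 to 0.14) and Drd2 (-0.072 to 0.094). In the VTA they were Drd2 (-0.87 to 0.11) and Ppp1r1b (-0.014 to 0.42) in females, Adora2a in males (-0.24 to 0.82), the mean for Tac1 (-0.48 to 0.30), and the sex difference of Drd1 (-0.72 to 1.20), Drd2 (-0.28 to 0.70) and Adora2a (-0.36 to 0.70). Region by fentanyl changed sign for Drd1 (-0.27 to 0.75) and Drd2 (-0.00050 to 0.43). Tac1 between saline sexes was 0.012 with library totals alone, and the VTA sex difference of Drd2 was -0.14 with limma voom and -0.77 with the replicate block. Depth limits Drd1 in the VTA, at 0 to 17 counts per library.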
